A study of Mus musculus with 12 samples.

Results

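The dystrophin-glycoprotein complex was examined in quadriceps muscle of 7-day-old mice through 8 genes, Dmd, Utrn, Dag1, Sgca, Sgcb, Sgcd, Dtna and Sspn, out of 19938 genes measured. The genes were chosen by symbol. Each had 1 probe set that the array annotation paired with a single symbol, so all 8 were measured and no choice between probe sets arose. By the authors' account the 12 arrays carried total RNA of separate C57Bl/6 mice, littermates under routine care, taken at day 7. Of the arrays 6 were titled WT (wildtype for cofilin-2) and 6 were titled KO (cofilin-2 null). Cofilin-2, encoded by Cfl2, is the muscle protein that takes actin filaments apart, and the comparison asks which transcripts differ in muscle without it.

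The labels were checked first on Cfl2 itself, and it opposed them. Its log2 level lay between 12.31 and 12.43 on the arrays titled KO and between 4.92 and 7.71 on the arrays titled WT. Every array is therefore called by its label ("labelled KO", "labelled WT"), none was moved, and each difference below is labelled KO minus labelled WT. This direction opposes the one that the text of the study states for Cfl2, and also for Itga5, Vcl and Lep. Every sign below turns if the labels are turned. Dmd and Utrn would then be higher in cofilin-2 null muscle, at 1.97-fold and 1.61-fold the level of the other group. The tissue label was borne out by muscle fibre transcripts, with Acta1 at 13.7 and Ckm at 13.4 on average over the arrays. Of 12 muscle fibre markers 1 was called higher on the arrays labelled KO (Myh4) and 3 lower, against 19.5% and 12.4% of all probe sets. After quantile normalization 1 was higher and 2 lower, and after median centring 1 higher and 7 lower. The mean level of the 12 ranged from 12.66 to 12.83 on the arrays labelled KO and from 12.40 to 12.79 on the arrays labelled WT. Levels are log2 values normalized by the authors, and a difference of 1 on this scale is a 2-fold change. Brightness depends on the probe set, so no order of abundance among the 8 genes is given. In whole muscle, fewer cells of a type and less RNA per cell cannot be told apart.

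The complex ties the actin cytoskeleton of the muscle fibre to the basement membrane outside it. Dystrophin lies under the membrane and binds actin, dystroglycan spans the membrane and binds laminin through its sugar chains, and the sarcoglycans with sarcospan hold dystroglycan in place. Utrophin is the close relative of dystrophin that lines the fibre membrane before birth and later stays mainly at nerve and tendon contacts. Loss of dystrophin causes Duchenne muscular dystrophy, and loss of single sarcoglycans causes limb-girdle dystrophies.

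The actin-binding proteins of the complex, Dmd and Utrn, were lower on the arrays labelled KO, and the 6 membrane and cytoplasmic partners did not pass the test. By limma with adjustment over all 21789 probe sets, 2 of the 8 genes were lower on the arrays labelled KO and 0 higher. Of all probe sets 31.9% were called, 12.4% lower and 19.5% higher. Higher calls made up 61.1% of all calls, 50.6% after quantile normalization and 36.2% after median centring. The count of lower genes is small, and the sizes set these genes apart from most others. The Dmd difference ranked 92 from the lowest among the 21789 probe sets, and that of Utrn ranked 229; with the labels turned, these are the ranks from the highest.

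Dmd, which encodes dystrophin, had log2 levels of 9.68 at the lowest, 9.95 at the median and 10.44 at the highest in the group labelled KO. In the group labelled WT the lowest was 10.61, the median 11.01 and the highest 11.20. The groups did not overlap, which held for 15.4% of all probe sets (10.5% with the arrays labelled KO above and 4.92% with them below), and the gap between the nearest arrays, labelled KO1 and WT3, was 0.17. The means were 9.997 ± 0.28 and 10.97 ± 0.20 (SD, n = 6). Dmd was thus lower by 0.98 on the log2 scale on the arrays labelled KO (SE 0.12, 95% interval -1.24 to -0.71, limma adjusted p = 6.8e-05). The level labelled KO was 50.8% of the level labelled WT, which was 1.97-fold that labelled KO. Dmd lies on the X chromosome and the labels give no sex. With the level of Y-linked genes as a covariate its difference was -0.98 (limma adjusted p = 0.000111). Some arrays were high both for Xist, an X-linked transcript of females, and for the Y-linked mean. These levels were 9.76 and 8.06 on the array labelled KO2 and 8.28 and 8.52 on WT2. On WT3 they were 11.50 and 4.80, and on WT5 4.78 and 8.48. Whether RNA of different mice was mixed on any array was not tested.

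Utrn, which encodes utrophin, spanned 9.0 to 9.77 with a median of 9.43 in the group labelled KO. In the group labelled WT it spanned 9.79 to 10.37 with a median of 10.12. The groups touched without overlapping, with 0.02 between the highest array labelled KO and the lowest labelled WT. The means were 9.40 ± 0.25 and 10.09 ± 0.20 (SD, n = 6), a log2 difference of -0.69 ± 0.12 (SE, 95% interval -0.94 to -0.44, limma adjusted p = 0.000566). The level labelled KO was 62.1% of the level labelled WT, which was 1.61-fold that labelled KO.

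**Figure D1:**
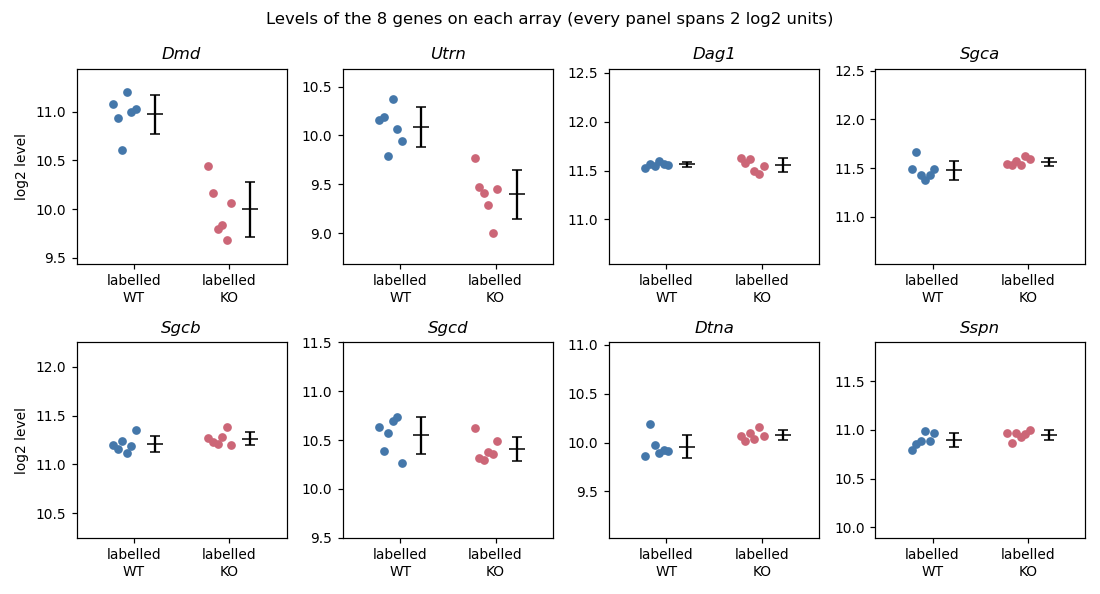
Log2 level of the 8 genes on each array, labelled WT in blue and labelled KO in red, with every vertical axis spanning 2 log2 units; bars are mean and SD (n = 6). Dmd and Utrn separate the groups, with gaps of 0.17 and 0.02, and the other 6 genes overlap.

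Both genes were lower on the arrays labelled KO, and the log2 difference of Dmd was the larger. Whether the 2 probe sets respond alike to a change in RNA was not tested. The difference Utrn minus Dmd within each array was -0.60 ± 0.12 on the arrays labelled KO and -0.89 ± 0.12 on those labelled WT (SD, n = 6), of which only the change between groups is read, since the levels come from different probe sets. The change was 0.29, and an exact permutation test over the 924 ways to assign the arrays gave p = 0.00216 (two-sided), the lowest value it can give. All 6 arrays labelled KO, at -0.69 to -0.39, lay above all arrays labelled WT, at -1.09 to -0.74. Within the groups the same arrays tended to be high or low for both genes. The array labelled KO1 was the highest of its group for both and KO5 the lowest, while among those labelled WT the array WT4 was the highest and WT3 the lowest for both. Across the 6 arrays labelled KO, Pearson's r between Dmd and Utrn was 0.91 (exact permutation p = 0.0125) and Spearman's rho 0.94 (exact permutation p = 0.0167), and r was 0.73 without the 2 arrays farthest from the Dmd median. Across the 6 labelled WT, r was 0.82 (exact permutation p = 0.0486) and rho 0.60 (exact permutation p = 0.242), and r became -0.27 without the 2 farthest arrays, so that it rests on them. Over 56 such relations, 28 gene pairs in each group, 0 passed after adjustment and 4 had an unadjusted exact p below the threshold. The adjusted p for Dmd and Utrn was 0.35 among arrays labelled KO and 0.68 among those labelled WT, both from exact permutation.

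The genes whose deviations from their group means were most like those of Dmd over the 12 arrays, among 9767 brighter genes, were Ryr1, Phip, Brwd1, Bod1l and Xirp2, with r of 0.98, 0.97, 0.96, 0.95 and 0.95. Ryr1 encodes the calcium release channel of muscle and Xirp2 an actin-binding protein of the fibre's attachments. For Utrn they were Kmt2a, Birc6, Ep300, Ubn2 and Atad2b, with r of 0.98, 0.97, 0.97, 0.96 and 0.95. Kmt2a and Ep300 encode enzymes that modify histones. By the same measure Dmd and Utrn had an r of 0.88 with each other. Of the 10 genes named, 8 were also called lower on the arrays labelled KO, against 12.4% of all probe sets. They ran from Xirp2 at -1.23 ± 0.14 to Atad2b at -0.28 ± 0.08 (SE). The 10 were picked for their likeness to Dmd or Utrn on these same arrays. Ryr1 and Birc6 did not pass (-0.26 and -0.18, limma adjusted p = 0.0722 and 0.179).

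Several of these genes, like Dmd and Utrn, are known for very long mRNAs. A list of 24 other genes with very long mRNAs was therefore written after this was seen, and 20 of them were measured; Ryr1 and Birc6 are among them. By the test 9 of them were lower on the arrays labelled KO, against 12.4% of all probe sets, and 0 higher. Of the 20 measured, 19 had a difference below 0, and the median difference was -0.26 against -0.02 over all probe sets. Mycbp2, Macf1, Dst and Dync1h1 led with -0.71, -0.70, -0.60 and -0.57. Macf1 and Dst encode giant linkers of the cytoskeleton and Dync1h1 the heavy chain of dynein. The mean level of the list ranged from 9.33 to 9.97 on the arrays labelled KO and from 9.76 to 10.24 on those labelled WT. The correlation of its genes' deviations with those of Dmd had a median of 0.87 (0.45 to 0.98), and with those of Utrn a median of 0.89 (0.57 to 0.97). These values are a description, since the list was written for this pattern and the upper ends are those of Ryr1 and Birc6, which had been picked for their likeness. With the mean level of the list as a covariate the difference of Dmd was -0.62 (limma adjusted p = 0.000296) and that of Utrn -0.34 (limma adjusted p = 0.00294). The list itself differed between the groups and was written for the pattern it adjusts for, so these values are given for their size alone. Sgcd, which did not pass either way, had a difference of -0.004 in that fit. By the methods the RNA was checked for size distribution before use. RNA quality by array was not analysed here, and its part in these differences was not tested.

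**Figure D2:**
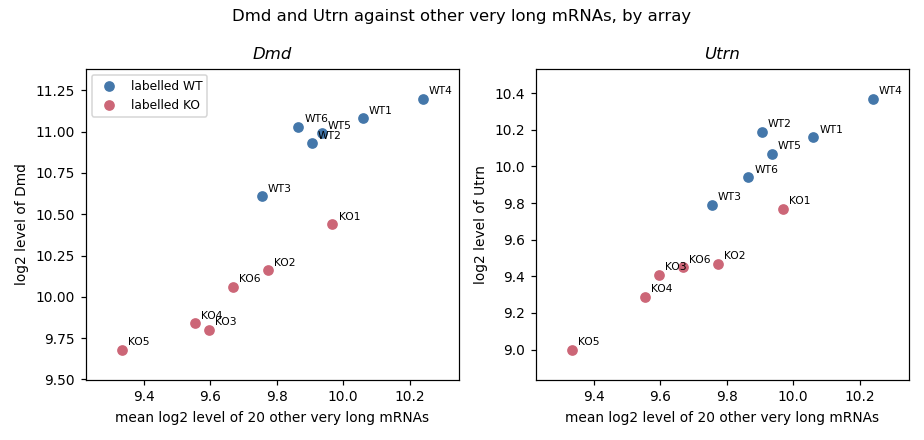
Log2 level of Dmd (left) and Utrn (right) on each array against the mean log2 level of 20 other very long mRNAs, labelled WT in blue and labelled KO in red. Both genes rise with the list within each group, and the array labelled KO1, at 9.97 on the horizontal axis, lies below the arrays labelled WT for both genes.

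The bases just before the annotated starts of Dmd and Utrn, the pair lower on the arrays labelled KO, are shown with those of Dag1 and Sgca for comparison. The first start listed for each gene was used. RefSeq starts on GRCm38.p6 were matched for 7 of the 8 genes, with 10 windows in all. Capitals mark matches on either strand to the E-box CANNTG, the GC box GGGCGG, the CArG box and the MEF2 site; the ETS core CCGGAA and the MCAT element CATTCC were searched too and were not found in the windows shown. Each is 250 bases long, 5′ to 3′ on the gene's strand.
Dmd, chrX:82948620-82948869, plus strand: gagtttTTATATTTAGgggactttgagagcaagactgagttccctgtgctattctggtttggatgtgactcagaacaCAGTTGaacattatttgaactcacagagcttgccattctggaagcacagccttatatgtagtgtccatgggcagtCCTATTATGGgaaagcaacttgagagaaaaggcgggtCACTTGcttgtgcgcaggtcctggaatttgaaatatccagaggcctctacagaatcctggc
Utrn, chr10:12861736-12861985, minus strand: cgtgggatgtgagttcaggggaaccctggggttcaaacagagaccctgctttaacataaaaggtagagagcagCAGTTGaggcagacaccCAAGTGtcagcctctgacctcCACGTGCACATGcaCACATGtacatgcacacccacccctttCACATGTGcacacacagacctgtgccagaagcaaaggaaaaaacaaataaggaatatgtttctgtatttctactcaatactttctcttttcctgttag
Dag1, chr9:108263959-108264208, minus strand: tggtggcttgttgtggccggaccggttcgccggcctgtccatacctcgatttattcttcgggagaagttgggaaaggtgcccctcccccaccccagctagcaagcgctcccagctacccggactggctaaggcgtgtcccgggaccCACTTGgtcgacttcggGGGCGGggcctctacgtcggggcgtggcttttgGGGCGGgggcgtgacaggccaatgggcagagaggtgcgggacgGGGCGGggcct
Sgca, chr11:94976328-94976577, minus strand: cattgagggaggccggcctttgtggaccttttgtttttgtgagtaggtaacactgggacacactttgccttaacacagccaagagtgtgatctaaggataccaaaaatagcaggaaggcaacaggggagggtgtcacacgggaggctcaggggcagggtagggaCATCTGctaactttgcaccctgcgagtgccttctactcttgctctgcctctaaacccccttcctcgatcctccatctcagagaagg

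The Dmd window held 2 E-boxes, 1 CArG box and 1 MEF2 site, and the window of its other listed start held 3 GC boxes and none of the other motifs. The Utrn window held 7 E-box matches, some of which overlap, and none of the other motifs. Dag1 held 3 GC boxes and 1 E-box, and Sgca 1 E-box. Of all 32851 windows of the same length, 66.2% held an E-box, 32.7% a GC box, 12.6% the MCAT element, 2.92% a MEF2 site and 1.47% a CArG box, and 3952 windows held the ETS core. Over the 10 windows the share of G or C ranged from 45.2% (Dmd, the start shown) to 74.8% (Dag1, the start not shown), with 46.8% for Utrn, 60.0% for the other Dmd start and 48.0% and 51.2% for Sspn, which did not pass. These are matches of letters, and no binding was measured. Whether the listed starts, that of Utrn among them, are the ones used in muscle was not tested. A motif missing from a window is therefore not shown to be missing from the gene's promoters.

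Dag1 encodes dystroglycan, the receptor at the centre of the complex. It was the steadiest of the 8 genes between groups, at 11.46 to 11.63 (median 11.57) on the arrays labelled KO and 11.53 to 11.60 (median 11.57) on those labelled WT. The range labelled WT lay within the range labelled KO. The difference was -0.01 ± 0.04 (SE, 95% interval -0.09 to 0.08, limma adjusted p = 0.91), an interval far narrower than the change of Dmd.

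The sarcoglycans, which form a tight group of membrane proteins beside dystroglycan, differed by less than the test could call. Sgca (alpha-sarcoglycan) lay at 11.53 to 11.62 (median 11.56) on the arrays labelled KO and at 11.38 to 11.66 (median 11.46) on those labelled WT, a difference of 0.08 (95% interval -0.02 to 0.18, limma adjusted p = 0.19). Sgcb (beta-sarcoglycan) lay at 11.20 to 11.38 (median 11.25) and at 11.12 to 11.35 (median 11.20), a difference of 0.05 (95% interval -0.05 to 0.15, limma adjusted p = 0.419). Sgcd (delta-sarcoglycan) spread the most of the 3 within its groups, at 10.30 to 10.62 (median 10.37) and 10.26 to 10.74 (median 10.60). Its difference was -0.14 (95% interval -0.32 to 0.04, limma adjusted p = 0.227), and with array weights it was -0.23 (limma adjusted p = 0.0165). In all 3 genes the groups overlapped. Sgca passed only without the array labelled WT2, at 0.12 (limma adjusted p = 0.0305).

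Sspn encodes sarcospan, the tetraspanin-like protein that steadies the sarcoglycans. It lay at 10.86 to 11.00 (median 10.97) on the arrays labelled KO and 10.79 to 10.99 (median 10.89) on those labelled WT, with a difference of 0.05 (95% interval -0.04 to 0.14, limma adjusted p = 0.377). Dtna encodes alpha-dystrobrevin, the cytoplasmic partner that binds dystrophin and the syntrophins. All 6 arrays labelled KO lay at 10.02 to 10.16 (median 10.07). In the group labelled WT 5 arrays lay at 9.86 to 9.97 and the array WT2 at 10.19. The difference was 0.12 ± 0.05 (SE, 95% interval 0.00 to 0.24, limma adjusted p = 0.105). Without the array labelled WT2 it was 0.17 and passed (limma adjusted p = 0.00637), and it passed with array weights at 0.13 (limma adjusted p = 0.0453). The 6 genes that did not pass all had intervals that lie between -0.32 and 0.24, which exclude a change as large as that of Dmd or Utrn as estimated.

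**Figure D3:**
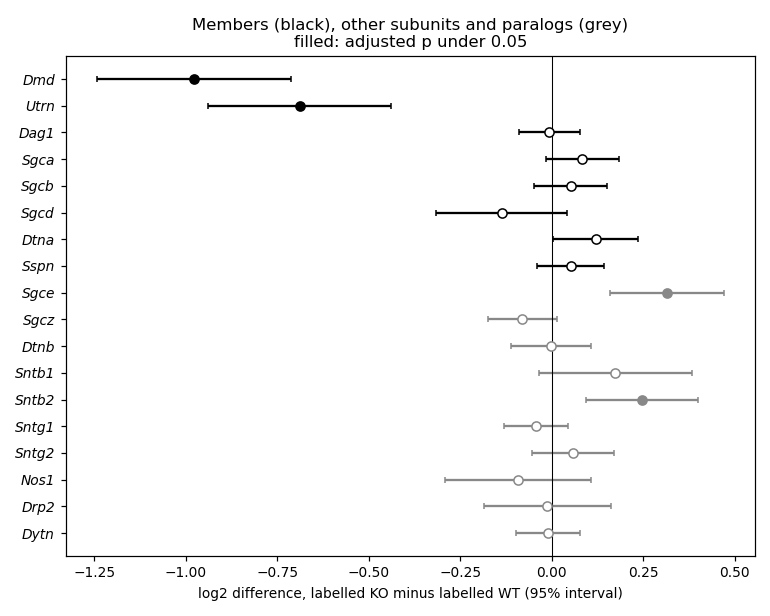
Log2 difference, labelled KO minus labelled WT, with its 95% interval for the 8 genes (black) and for 10 other subunits and paralogs (grey); filled points passed an adjusted p of 0.05. Dmd at -0.98 and Utrn at -0.69 stand to the left of all others, and Sgce at 0.31 and Sntb2 at 0.25 passed on the right.

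Of the other subunits and paralogs of the complex 10 were measured. By the test 2 were higher on the arrays labelled KO, 0 lower and 8 did not pass, with a median difference of -0.01 against -0.02 over all probe sets (2 higher and 1 lower after median centring). Calls over all probe sets were 19.5% higher and 12.4% lower. Sgce, the epsilon-sarcoglycan found in many tissues, was higher by 0.31 ± 0.07, and Sntb2, the beta-2-syntrophin, by 0.25 ± 0.07 (SE, limma adjusted p = 0.00449 and 0.0171). Sgce was no longer called with the level of the very long mRNAs as a covariate. The means of 4 of the 10, Sgcz, Sntg1, Sntg2 and Dytn, lay between 4.47 and 6.25, under the array medians of 7.08 to 7.18, and whether they carried signal was not analysed here. Dtnb, the beta-dystrobrevin, and Drp2, the dystrophin-related protein of myelinating cells, had differences of 0.00 and -0.01. Nos1, the nitric oxide synthase that the complex anchors at the membrane, had a difference of -0.09 ± 0.09 (SE).

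Matrix ligands of dystroglycan went both ways, with 3 higher, 1 lower and 8 not passing of 12, a share near the 31.9% called over all probe sets, and a median difference of -0.03 (2 higher and 2 lower under either rescaling). Lama2, the laminin chain of the muscle basement membrane whose loss causes congenital dystrophy, was lower by 0.41 on the log2 scale (limma adjusted p = 0.00211), with 10.64 ± 0.20 against 11.06 ± 0.12 (SD, n = 6). The call on Lama2 was lost with the very long mRNAs as a covariate. Lama4, a laminin chain of vessels and other tissues, was higher by 0.34 ± 0.09, and Nid2, a nidogen that links laminin with collagen, by 0.60 ± 0.10 (SE). Egflam (pikachurin) was higher by 0.18 (limma adjusted p = 0.0453), a call lost in 9 of 12 alternatives and kept in 2 of 12 fits without 1 array. Endothelial markers were also higher beside this group. Of 8 such markers 6 were higher and 0 lower, against 19.5% and 12.4% of all probe sets. Their mean level ranged from 10.12 to 10.18 on the arrays labelled KO and from 9.56 to 9.99 on those labelled WT. The part of that in the ligands was not tested.

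Enzymes that build the laminin-binding sugar chain of dystroglycan included 7 higher on the arrays labelled KO among the 14 measured. Of the rest 0 were lower and 7 did not pass (median difference 0.07). By comparison, 19.5% of all probe sets were called higher and 12.4% lower. The split of the enzymes depended on scaling, with 4 higher and 2 lower after quantile normalization and 6 higher and 2 lower after median centring. The largest differences were those of Gmppb, which makes GDP-mannose, at 0.56 ± 0.08, Pomt1, which puts the first mannose on the protein, at 0.47 ± 0.05, Pomk, a kinase of that mannose, at 0.46 ± 0.05, and Dpm2, a subunit that makes the mannose donor, at 0.42 ± 0.06 (SE). Their limma adjusted p-values were 0.000121, 2.75e-05, 3.96e-05 and 0.00018. In each of these 4 genes, which were named for the size of their difference, the groups did not overlap. That held for 10.5% of all probe sets with the arrays labelled KO above. Gmppb was dim, with means of 6.62 (labelled KO) and 6.06 (labelled WT) under the array medians of 7.08 to 7.18. Whether it carried signal was not analysed here. Pomt2, which acts together with Pomt1, had a difference of -0.06 ± 0.06 (SE, limma adjusted p = 0.542). The receptor itself, Dag1, stayed within 0.09 of 0 by its interval.

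Cytoplasmic partners had 2 higher, 3 lower and 7 not passing of 12, with a median difference of -0.06 (0 higher and 3 lower after quantile normalization). The share called over all probe sets was 31.9%, with 19.5% higher and 12.4% lower. Ank3, the ankyrin-G that helps hold dystrophin and dystroglycan at the fibre membrane, had a log2 difference of -0.66 ± 0.09 (SE, limma adjusted p = 0.000161). It lay at 9.69 to 10.21 on the arrays labelled KO and at 10.36 to 10.92 on those labelled WT. The groups did not overlap, which held for 4.92% of all probe sets with the arrays labelled KO below. Plec, the cytoskeletal linker plectin, had a difference of -0.44 ± 0.10, and Cav3, the muscle caveolin that binds dystroglycan, of -0.18 ± 0.05 (SE). Krt8, a keratin, was higher by 0.29 ± 0.07 (SE). With the level of the very long mRNAs as a covariate Plec, Cav3 and Krt8 were no longer called (limma adjusted p = 0.135, 0.0718 and 0.0538), and Ank3 was at -0.48. Cav3 also lost its call with the replicate block (limma adjusted p = 0.0511) and Krt8 after quantile normalization (limma adjusted p = 0.0831).

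**Figure D4:**
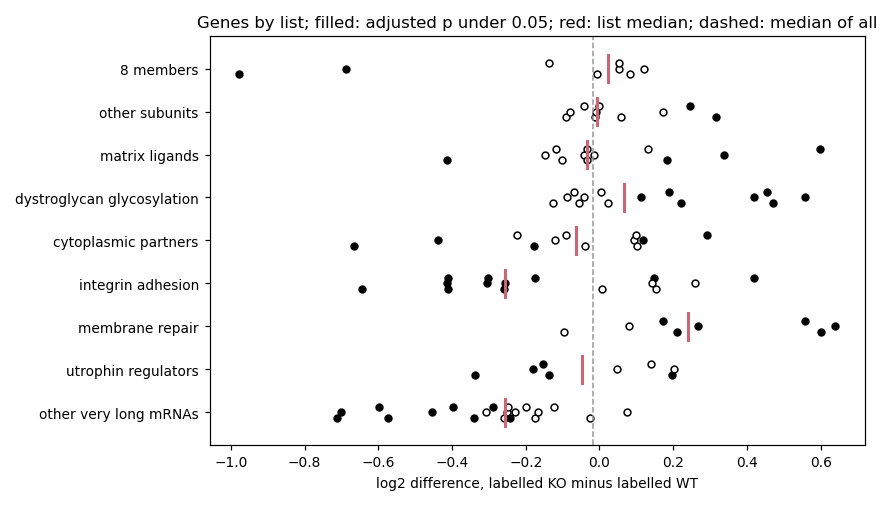
Log2 difference, labelled KO minus labelled WT, of each measured gene by list; filled points passed an adjusted p of 0.05, red bars are list medians and the dashed line is the median of all probe sets, -0.02. The list medians are -0.26 for integrin adhesion and 0.24 for membrane repair, and Dmd and Utrn lie at the left end of the members.

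The integrin link, the other route from laminin to the cytoskeleton, had 2 higher, 9 lower and 4 not passing of 15 and a median difference of -0.26. For all probe sets the shares were 19.5% higher and 12.4% lower. With the very long mRNAs as a covariate the list had 2 higher and 5 lower. Itga5 and Vcl of this list are named by the study for these arrays, with the opposite direction, so that for them the list is not independent. Itga5, a fibronectin receptor chain, had a log2 difference of -0.64 ± 0.08, and Ilk, the integrin-linked scaffold, of -0.41 ± 0.04 (SE, limma adjusted p = 5.73e-05 and 1.2e-05). Itga7, the laminin receptor chain of adult fibres, lay at 9.85 ± 0.08 against 10.15 ± 0.12 (SD, n = 6) and differed by -0.30, with a limma adjusted p of 0.00148. Itga3 had a difference of -0.41 ± 0.08, while Itga6, another laminin receptor chain, was higher by 0.42 ± 0.10 (SE). Itga3 lost its call with that covariate (-0.21, limma adjusted p = 0.0701). Its means, 6.593 (labelled KO) and 7.005 (labelled WT), lay under the array medians of 7.08 to 7.18.

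Genes of membrane repair had 6 higher, 0 lower and 2 not passing of 8 (median difference 0.24), with 5 higher after quantile normalization, 4 after median centring and 3 with the very long mRNAs as a covariate. Among all probe sets 19.5% were called higher and 12.4% lower. Anxa1 and Anxa2, annexins that gather at torn membrane, were higher by 0.64 ± 0.19 and 0.60 ± 0.09, and Ehd2, a membrane-bending protein of caveolae, by 0.56 ± 0.06 (SE). Anxa1 lost its call with that covariate (limma adjusted p = 0.0817). Dysf, the muscle repair protein dysferlin, had a difference of -0.10 ± 0.08 (SE, limma adjusted p = 0.395). These annexins are also made by fibroblasts and macrophages. Of 7 fibroblast markers 6 were higher and 1 lower (mean level 11.18 to 11.34 on the arrays labelled KO and 10.65 to 11.04 on those labelled WT), and of 6 macrophage markers 4 were higher and 0 lower (8.84 to 9.01 and 8.29 to 8.79). The part of these cells was not tested.

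Factors known to act on the utrophin promoter had 1 higher, 4 lower and 3 not passing of 8 and a median difference of -0.05, while 19.5% of all probe sets were called higher and 12.4% lower. Ppargc1b, a coactivator, had a difference of -0.34 ± 0.10 (SE, limma adjusted p = 0.024), Erf, a repressor, of -0.18, and Ets2 of 0.20. Sp1 and Gabpa were lower too, by 0.15 and 0.14 (limma adjusted p = 0.0414 and 0.0145). These calls were near the threshold. Their number ranged from 0 with the very long mRNAs as a covariate to 7, and without 1 array from 1 (labelled KO4 left out) to 5.

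The remaining marker lists for cells that whole muscle can hold gave 4 higher and 0 lower of 6 adipocyte markers (mean level 8.39 to 10.24 in the group labelled KO, 8.23 to 9.34 in the group labelled WT), 1 higher and 2 lower of 8 for smooth muscle and pericytes, 1 and 0 of 4 for Schwann cells and 2 and 1 of 6 for satellite cells. By the same test 19.5% of all probe sets were higher and 12.4% lower. The part of these cells in the differences of Dmd and Utrn was not tested.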

How the data were processed

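Total RNA of 12 quadriceps muscles was hybridized by the authors to Affymetrix Mouse Gene ST arrays, 1 per mouse. The deposited values are log2 levels that the authors made with Affymetrix Power Tools after extraction with the Affymetrix operating software; that they are log2 was inferred from their range, and for the summary method, version and build the sources used here give nothing. Of 35556 rows, 21789 probe sets had 1 gene symbol in the platform annotation, 1621 had several and 12146 were not listed. Symbols were updated by gene identifier from RefSeq (GRCm38.p6; 21698 matched). The probe set with the highest mean stood for each of 19938 genes.

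Groups came from the sample titles. Differences (labelled KO minus labelled WT) were fitted with limma 3.58.1 in R 4.3.3, without covariates or a filter on dim probe sets, and adjusted by Benjamini-Hochberg over all 21789 probe sets at 0.05. That the mice were not pooled is the methods' account, and precision is limited by how many arrays there were. The fit was tested on simulated data. Single contrasts and correlations used exact permutation. Motif matches were counted in the windows before RefSeq starts.

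Members and lists were chosen with earlier results of these data known, and the list of very long mRNAs after its pattern was seen. Genes named are the 8 members, Cfl2, up to 4 called genes of each list by size, and the 5 genes most like Dmd and most like Utrn above the median level; members that did not pass are given with values. Acta1, Ckm, Myh4 and the uncalled or smaller list members given (Sgcz, Sntg1, Sntg2, Dytn, Dtnb, Drp2, Nos1, Pomt2, Itga7, Vcl, Lep, Dysf, Gabpa) were chosen after their values were seen. The alternatives tried were quantile normalization, a replicate block, a filter on dim probe sets (below the 25th percentile), median centring, all rows, an intensity trend, robust variance, array weights, the methods' t-test, covariates, gene means and each array left out.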

Additional observations from a re-analysis of the deposited data

Results flagged for a closer look

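Single arrays stood apart from the other 5 of their group in 5 of the 76 groups examined, by a test of the gap to the nearest array that flags about 1 in 20 groups by chance. Dtna was 10.19 on the array labelled WT2, with the nearest at 9.97. Ilk was 11.30 on the array labelled WT4, with the nearest at 11.42. Mycbp2, one of the very long mRNAs, was 9.90 on the same array, with the nearest at 9.40. Ets2 was 10.01 on the array labelled WT6, with the nearest at 10.29. Sp1, a factor of the utrophin promoter list, was 8.63 on the array labelled KO5, with the nearest at 8.81.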

How the results depend on the processing

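The differences of Dmd and Utrn kept their direction and their call under all 11 alternatives planned, at -1.04 to -0.98 for Dmd and -0.75 to -0.68 for Utrn. With the very long mRNAs as a covariate, added after the data were seen and written for the pattern, they were -0.62 and -0.34. Leaving out single arrays gave -1.07 to -0.91 and -0.76 to -0.61. The Utrn minus Dmd change was 0.28 to 0.29 (0.25 to 0.32 without single arrays).

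Differences near 0 changed sign. Dag1 was 0.002 with quantile normalization, 0.050 with the very long mRNAs as a covariate and -0.021 to 0.013 without single arrays. Sgcb was -0.008 with median centring and -0.016 with that covariate, and Sspn was -0.008 with median centring. With array weights Sgcd (-0.234) and Dtna (0.128) passed, so that 1 member was called higher. Without single arrays Sgca was 0.063 to 0.119 and Dtna 0.101 to 0.167, and 0 to 2 members were called higher, 2 of them without the array labelled WT2. The cause was not tested.

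With the very long mRNAs as a covariate 4352 probe sets were called in place of 6952. Called genes were then 1 of the other subunits, 2 cytoplasmic partners, 7 of integrin adhesion, 3 of membrane repair, 0 utrophin regulators and 5 of the very long mRNAs. Cytoplasmic partners had 3 calls with quantile normalization and 3 with the replicate block. Utrophin regulators had 3 with all rows tested, 3 with an intensity trend, 2 by the methods' t-test and 1 with the replicate block, and 1 to 5 without single arrays. The very long mRNAs had 8 to 14 calls without single arrays, 14 without the array labelled KO1. Higher calls were 61.1% of all calls, 36.2% with median centring, which moved all differences by 0.06, and 50.6% with quantile normalization.

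The methods speak of pairs of littermates, but no label ties the replicate numbers in the titles to litters. Deviations of arrays that share a number correlated at -0.22 to 0.17, and 1 of 6 arrays labelled WT correlated best with its own number. With the number as a replicate block 6074 probe sets were called, Dmd was -0.977 and Utrn -0.688, both called, and the Utrn minus Dmd change was 0.288. With 1 probe set per member, gene means gave the same differences. Signal over background was not analysed here.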
